A study of Mus musculus with 6 samples.

Results

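The genes of the proteasome, the protease complex that degrades ubiquitin-tagged proteins, were followed in mouse neuro2a (N2a) cells in which the transcription factor NF-Y was knocked down. They were taken as every gene whose symbol starts with Psma, Psmb, Psmc, Psmd, Psme, Psmf or Psmg, without the immunoproteasome subunits Psmb8, Psmb9 and Psmb10. Of 54 such mouse genes in RefSeq, 47 had a probe on the array and 45 could be tested, among 16514 genes tested in all. Psma8 and Psmb11, known as the testis and thymus forms of core subunits, had probes that were well above background on 0 of the 6 arrays and were not tested. The remaining 7 had no probe; they were 6 pseudogenes and Psme2b, a near copy of Psme2. Of the 45 genes, 43 code for subunits, activators, an inhibitor or assembly factors. Psmc3ip, a meiotic recombination factor, and Psme3ip1, a partner of the activator Psme3, matched the symbol rule only.

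N2a is a mouse neuroblastoma line. In the knockdown group, 3 samples, the cells had been transfected with vectors whose hairpins target NF-YA and NF-YC together, and in the control group, 3 samples, with the empty vector of the same kind (a plasmid that carries EmGFP and a microRNA-based hairpin cassette). The cells of both groups were then cultured so that the knockdown could take hold, before total RNA was labelled with Cy3 and hybridised to one-colour Agilent arrays. The labels do not say that the samples of a group came from separate cultures, so p-values measure the spread between these samples, which may be technical, and an empty vector does not account for effects of an expressed hairpin.

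The proteasome has a barrel-shaped core particle, with outer rings of alpha subunits and inner rings of beta subunits that hold the proteolytic sites, and a regulatory particle on its ends. The regulatory particle binds ubiquitin chains, removes them and, with a ring of ATPases, unfolds the substrate and feeds it into the core. Dedicated chaperones assemble the rings, and alternative activators can replace the regulatory particle. NF-Y is a trimer of NF-YA, NF-YB and NF-YC that binds the CCAAT sequence near transcription start sites, and neuronal cells depend on the proteasome to clear damaged and short-lived proteins.

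Values below are log2 signals after the 75th percentile of each array was subtracted, so 0 is that percentile, and a change is the knockdown mean minus the control mean. They can be compared between arrays for 1 probe, but not between probes. The share of spots well above background was 61.9% to 66.2%, the 75th percentile of the signal lay between 718 and 754, and correlations between arrays were 0.989 to 0.994 within groups and 0.987 to 0.990 between them. The number of arrays, 3 in each group, limits the precision. Of 15 neuroblastoma and neuron markers listed, 14 were tested, and Nefl had a probe but was not tested. Control means of the 14 ran from -5.32 (Nefm) to 6.33 (Phox2a), with Chga at 5.65. All of the 14 were well above background on all 6 arrays. At an adjusted p below 0.05 (limma), 5 were lower and 1 higher in the knockdown, or 42.9%, against 31.4% of all genes tested. Changes of the 14 markers ran from -0.62 (Th) to 0.29. Their summed linear signal, relative to the 75th percentile, was 388 to 397 in the controls and 359 to 370.2 in the knockdown. The 12 markers of other cell types included 7 that were well above background on every array, mostly dim, and 3 (25%) were lower in the knockdown. Their sum on the same scale was 1.13 to 1.16 in the controls and 0.777 to 0.805 in the knockdown. The part of these markers in the results was not tested, and in RNA from whole cultures fewer cells of a type and less RNA per cell cannot be told apart.

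The targeted genes were lower in every knockdown array. Nfyc was 3.997, 3.93 and 3.98 in the controls and 2.12, 2.20 and 2.18 in the knockdown, a change of -1.81 (SE 0.045, limma adjusted p = 0.00033). Nfya was 0.14, 0.15 and 0.21 in the controls and -0.66, -0.52 and -0.59 in the knockdown, a change of -0.76 (SE 0.055, limma adjusted p = 0.0013). Nfyb, which was not targeted, was 1.0002, 1.05 and 1.18 in the controls and 1.91, 1.90 and 1.92 in the knockdown, a change of 0.83 (SE 0.060, limma adjusted p = 0.0013). The arrays of each of these 3 genes did not overlap between the groups.

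The proteasome genes moved little. Their median change was 0.037, against 0.0054 for all genes tested, and their changes ran from -0.29 for Psmd4 to 0.35 for Psmg4. The median size of a change, without its sign, was 0.075 for the 45 genes and 0.20 for all genes. Of the 45, 41 (91.1%) lay within 0.2 of 0, against 50% of all genes tested and 54.3% of the 13973 genes that, like all 45, were well above background on every array. The 95% interval of the change stayed inside 1.5-fold in both directions (0.58 on the log2 scale) for 45 of 45 proteasome genes, 65.0% of all genes and 76.0% of the bright ones; the widest bound of any proteasome gene was 0.45, for Psmg4. The median standard error was 0.048 for the proteasome genes and 0.064 for all genes tested.

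**Figure D1:**
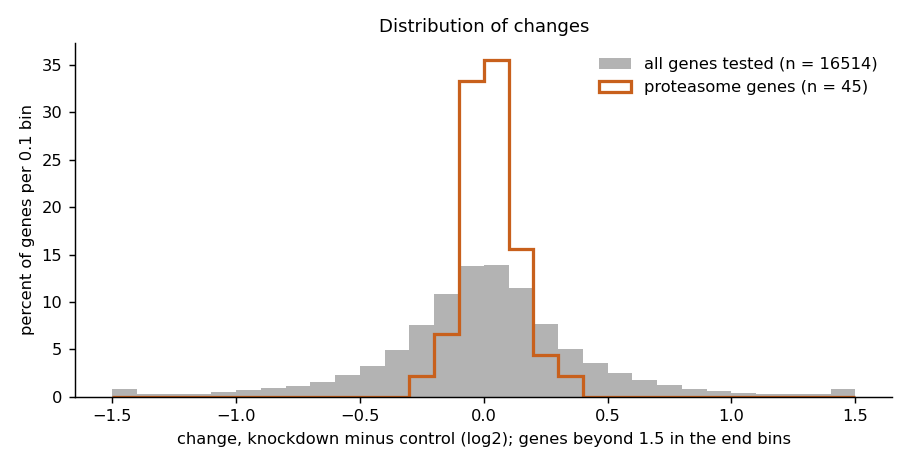
Percent of genes (vertical axis) in bins of 0.1 of the log2 change from control to knockdown (horizontal axis), for the 45 proteasome genes (line) and the 16514 genes tested (filled), with larger changes collected in the end bins. The proteasome genes gather around 0, 41 of 45 within 0.2, while the changes of all genes spread wider.

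At an adjusted p below 0.05 (limma, Benjamini-Hochberg over all probes tested), 1 proteasome gene was lower (Psmd4), against 15.7% of all genes tested. Another 4 were higher (Psmg4, Psmd5, Psme2 and Psma4), against 15.7%. Together these were 11.1% of the 45 genes, below the 31.4% of all genes and the 35.6% of genes well above background on all arrays. With a fold above 1.5 as well, 0 were lower, against 4.99% of all genes, and 0 were higher, against 3.91%. At an unadjusted p below 0.05, limma passed 11 of 45 (24.4%), against 46.1% of all genes tested. Leaving out any 1 of the 6 arrays left 1 lower and 2 higher, against 10.4% to 12.6% of all genes lower and 9.42% to 11.9% higher. The arrays did not overlap between the groups for 24 of 45 genes, 7 lower and 17 higher, or 53.3%, near the 54.7% of all genes.

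**Figure D2:**
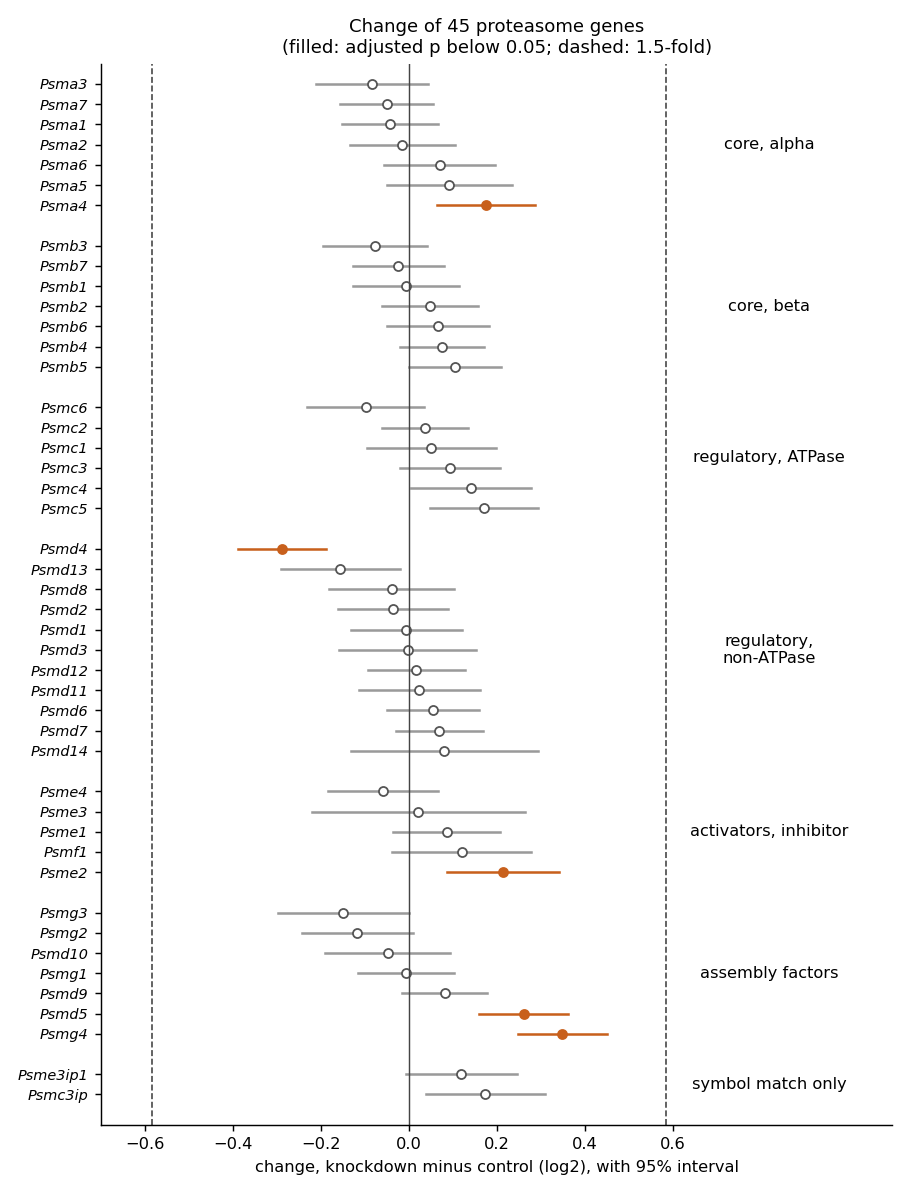
Log2 change from control to knockdown (horizontal axis, with 95% interval from limma) of the 45 genes, grouped by their place in the proteasome and ordered by change. Filled points passed at an adjusted p below 0.05, and no interval reaches the dashed lines at 1.5-fold.

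The count of higher genes depended on the scaling: quantile normalization gave 1 lower and 13 higher (15.6% and 18.1% of all genes), scaling to each array's median gave 1 lower and 0 higher (15.1% and 5.17%), and spike-in scaling gave 0 lower and 1 higher (9.23% and 10.2%). Median scaling, which shifts every gene of an array alike, put the median of all genes at -0.11 and that of the proteasome genes at -0.080. The median of the proteasome genes lay above that of all genes by 0.031 with the main scaling, by 0.086 with quantile normalization and by 0.081 with normexp and quantile normalization. Without a filter on dim probes, the difference was -0.0032, over 47 proteasome genes.

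**Figure D3:**
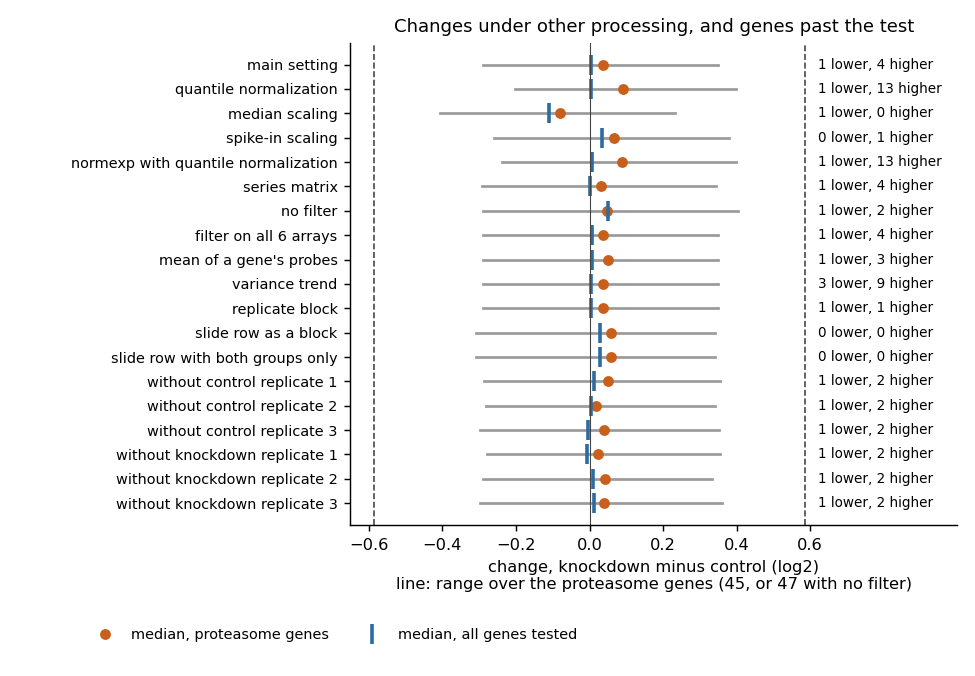
Range (grey line) and median (orange point) of the log2 changes of the proteasome genes, and the median of all genes tested (blue tick), under the main processing and 18 alternatives, with the number of genes that passed in each direction. The lower count varies from 0 to 3 and the higher count from 0 to 13, while no gene reaches the dashed lines at 1.5-fold.

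Promoter sequences are shown for Psmd4, the gene that fell, and for Psmg4 and Psmd5, the genes with the largest rises, since NF-Y binds CCAAT and the data bear on genes that move when it is knocked down. Each window runs from 250 bases before to 50 bases after the RefSeq start (GRCm38.p6), on the gene's strand. Capitals mark CCAAT or its reverse complement ATTGG. Psmd4 lies at chr3:95042565-95042864 on the minus strand, Psmg4 at chr13:34162714-34163013 on the plus strand and Psmd5 at chr2:34870913-34871212 on the minus strand.
Psmd4: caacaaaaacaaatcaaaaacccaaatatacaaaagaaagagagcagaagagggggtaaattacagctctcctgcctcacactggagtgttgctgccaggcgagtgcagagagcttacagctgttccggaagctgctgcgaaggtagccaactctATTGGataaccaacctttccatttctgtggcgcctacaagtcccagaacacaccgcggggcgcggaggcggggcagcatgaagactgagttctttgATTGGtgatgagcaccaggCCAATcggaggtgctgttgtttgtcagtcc
Psmg4: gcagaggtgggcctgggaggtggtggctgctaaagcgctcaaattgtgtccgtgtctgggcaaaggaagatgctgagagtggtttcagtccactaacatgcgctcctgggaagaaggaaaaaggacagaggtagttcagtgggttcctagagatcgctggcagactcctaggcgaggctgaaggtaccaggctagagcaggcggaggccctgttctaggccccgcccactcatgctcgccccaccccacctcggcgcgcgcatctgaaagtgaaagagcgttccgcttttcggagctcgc
Psmd5: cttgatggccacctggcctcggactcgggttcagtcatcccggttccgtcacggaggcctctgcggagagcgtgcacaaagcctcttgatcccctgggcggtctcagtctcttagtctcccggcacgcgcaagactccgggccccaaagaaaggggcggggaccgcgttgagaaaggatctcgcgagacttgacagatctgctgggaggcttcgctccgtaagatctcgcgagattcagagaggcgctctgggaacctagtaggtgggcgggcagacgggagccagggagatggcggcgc
The Psmd4 window held 3 matches, which began at base -95, 2 and 21 counted with the start site as 1 and the base before it as -1. The windows of Psmg4 and Psmd5 held 0.

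A window was on hand for 38 of the 45 genes. CCAAT on either strand occurred in 14 of 38 (36.8%), against 42.6% of the 13115 tested genes with a window, and in 33.3% of the windows of these genes against 37.8% of all windows. Of the 5 genes that passed, Psmd4 alone had the motif, and of the 33 that did not, 13 (39.4%) had it. The 14 genes with CCAAT had a median change of 0.0033, with 7 of 14 below 0, and the 24 without it a median of 0.071, with 8 of 24 below 0. Among subunits with a window, the motif occurred in 5 of 7 alpha and 1 of 4 beta subunits, 2 of 5 ATPases and 2 of 9 non-ATPases, and in 1 of 6 assembly factors. TGACNNNGC or its reverse complement GCNNNGTCA, the antioxidant response element read by the factors NFE2L1 and NFE2L2, occurred in 6 of 38 (15.8%), against 16.1% of tested genes, and in 0 of the 5 that passed. The motifs did not overlap in the windows shown. A match describes letters in these windows and is not a measured binding site.

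With the main scaling, RNA levels of the core particle genes stayed close to those of the controls. Among 7 alpha subunits, which form the outer rings and gate the entrance, 0 were lower and 1 (14.3%) was higher. Of all genes tested, 15.7% passed in each direction. The median change of the alpha subunits was -0.015, with a range of -0.083 to 0.18. The higher one was Psma4, with 4.36, 4.38 and 4.39 in the controls and 4.60, 4.51 and 4.56 in the knockdown. All 3 knockdown arrays lay above the controls, by 0.18 on average (SE 0.044, limma adjusted p = 0.045), a rise of 12.9%. A second probe of Psma4 changed by 0.13 and did not pass (limma adjusted p = 0.20), and the call of the brighter probe was lost when any 1 array was left out. Psma2, the alpha subunit with the brightest probe, was 6.77, 6.67 and 6.72 in the controls and 6.71, 6.74 and 6.67 in the knockdown, with overlapping groups and a change of -0.015 (95% interval -0.13 to 0.10).

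Among 7 beta subunits of the constitutive core, 0 passed in either direction, against 31.4% of all genes tested. The median change of the beta subunits was 0.048, with a range of -0.076 to 0.11. The largest difference was in Psmb5, which carries the chymotrypsin-like site. Its values were 7.55, 7.52 and 7.51 in the controls and 7.61, 7.67 and 7.62 in the knockdown. The groups did not overlap, but the change of 0.11 (SE 0.041) had a limma adjusted p of 0.14. Psmb6, with the caspase-like site, changed by 0.066 (95% interval -0.049 to 0.18), and Psmb7, with the trypsin-like site, by -0.024 (95% interval -0.13 to 0.079).

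The immunoproteasome subunits replace these 3 catalytic subunits in immune cells and after interferon, and served here as a comparison within the same complex. Psmb9, the counterpart of Psmb6, was -0.28, -0.18 and -0.29 in the controls and 0.70, 0.54 and 0.60 in the knockdown, a change of 0.87 (SE 0.063, limma adjusted p = 0.0013). Psmb8, the counterpart of Psmb5, was 2.22, 2.15 and 2.11 in the controls and 2.98, 2.91 and 2.82 in the knockdown, a change of 0.74 (SE 0.062, limma adjusted p = 0.0018). Both genes rose by more than 1.5-fold, and in both the knockdown arrays lay above all control arrays. Psmb10, the counterpart of Psmb7, changed by 0.13 (SE 0.059, limma adjusted p = 0.19), although it passed under quantile normalization with and without normexp. Psmb8 and Psmb9 passed in 17 of the 18 alternatives run, the exception being the first slide row alone, where no gene passed, and with the slide row as a block their changes were 0.82 and 0.96.

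To compare each pair directly, the difference between the immunoproteasome gene and its constitutive counterpart was taken within each array. It was larger in the knockdown than in the controls by 0.80 for Psmb9 and Psmb6, by 0.64 for Psmb8 and Psmb5, and by 0.15 for Psmb10 and Psmb7. The 3 knockdown arrays exceeded the 3 controls for each pair. Of all genes tested, 54.7% did not overlap between the groups, in either direction. The two-sided exact permutation p was 0.1 for each pair, and 0.1 after Benjamini-Hochberg adjustment over the 3 pairs. That is the smallest value that 20 assignments of 3 against 3 arrays allow, so it cannot tell the pairs apart.

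**Figure D4:**
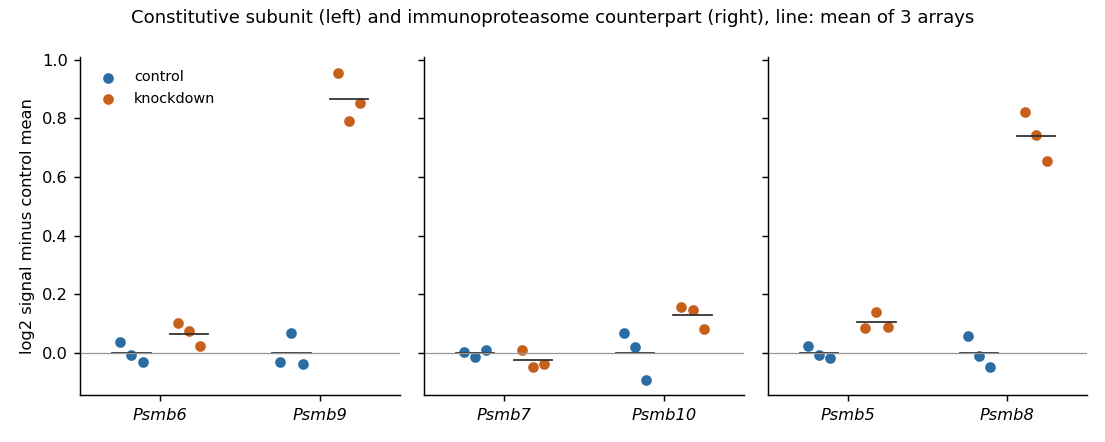
Log2 signal minus the gene's control mean (vertical axis) on each array for the 3 constitutive catalytic subunits and their immunoproteasome counterparts, controls and knockdown side by side with a line at the mean of 3 arrays. Psmb9 and Psmb8 sit well above their controls in the knockdown, while Psmb6, Psmb7 and Psmb5 stay within 0.15 of their control means.

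In the regulatory particle, 0 of 6 ATPases passed in either direction, against 31.4% of all genes tested. The ATPases had a median change of 0.072, with 1 of 6 below 0. The one with the brightest probe, Psmc3, was 7.09, 7.07 and 7.03 in the controls and 7.17, 7.19 and 7.11 in the knockdown. These groups did not overlap, yet the change of 0.094 (95% interval -0.020 to 0.21) did not pass (limma adjusted p = 0.20). A second probe of Psmc3 changed by 0.16 (95% interval 0.042 to 0.27, limma adjusted p = 0.065) and did not pass either. The largest ATPase difference was in Psmc5, at 0.17 (SE 0.048, limma adjusted p = 0.062). Under quantile normalization, 3 of the ATPases (Psmc3, Psmc4 and Psmc5) were among the 13 higher genes, and under median scaling the change of Psmc3 was -0.023.

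Of 11 non-ATPase subunits, 1 (9.09%) was lower and 0 were higher, against 15.7% of all genes tested in each direction. The median change of the 11 was -0.0025. The lower one was Psmd4, a ubiquitin receptor that catches ubiquitin chains on substrates. It was 6.69, 6.70 and 6.67 in the controls and 6.38, 6.40 and 6.42 in the knockdown. The groups lay far apart compared with their spread, and Psmd4 fell by 0.29 on the log2 scale (SE 0.039, limma adjusted p = 0.0072), that is to 0.819 of its control level, with a 95% interval of -0.39 to -0.19. It is the gene whose window above held 3 matches to CCAAT. No other non-ATPase subunit had a change below -0.16, the value of Psmd13, a subunit of the lid (SE 0.053, limma adjusted p = 0.10). Psmd3, a lid subunit with the brightest probe of this group, was 7.09, 6.99 and 6.92 in the controls and 7.03, 7.02 and 6.94 in the knockdown, with overlapping groups and a change of -0.0025 (95% interval -0.16 to 0.15). Psmd14, the deubiquitinating enzyme of the particle, changed by 0.081 with a wide interval of -0.13 to 0.29.

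Of 5 activators and inhibitors, 0 were lower and 1 (20%) was higher, against 15.7% of all genes tested in each direction. Psme2, which forms an interferon-inducible activator ring with Psme1, was 5.90, 5.80 and 5.87 in the controls and 6.12, 6.07 and 6.03 in the knockdown. All knockdown arrays were above the controls, and Psme2 rose by 0.21 (SE 0.050, limma adjusted p = 0.036), a fold of 1.16. A second probe of Psme2 rose by 0.27 (SE 0.047, limma adjusted p = 0.015). The near copy Psme2b had no probe of its own, and whether its transcripts reach the Psme2 probes is uncertain. The call of the brighter probe was lost when any 1 array was left out. Its partner Psme1 changed by 0.086 (limma adjusted p = 0.27), the nuclear activator Psme3 by 0.022, Psme4 by -0.059 and the inhibitor Psmf1 by 0.12, with limma adjusted p values of 0.24 to 0.90 for the last 3.

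Assembly factors held the largest rises. Of 7, 0 were lower, 2 were higher and the median change was -0.0058. Those that passed were 28.6% of the list, against 31.4% of all genes tested in either direction and 15.7% higher. Psmg4, a chaperone of alpha ring assembly, was 2.51, 2.48 and 2.50 in the controls and 2.84, 2.88 and 2.83 in the knockdown. The knockdown arrays lay clear of the controls, and Psmg4 rose by 0.35 (SE 0.040, limma adjusted p = 0.0044), a fold of 1.27 with a 95% interval of 0.25 to 0.45 on the log2 scale. Its promoter window held no CCAAT. Psmd5, a chaperone of the ATPase ring, was 3.11, 3.11 and 3.15 in the controls and 3.399, 3.36 and 3.39 in the knockdown, again without overlap. Psmd5 rose by 0.26 (SE 0.040, limma adjusted p = 0.010), a fold of 1.20.

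The other assembly factors did not pass. Psmg3, which pairs with Psmg4 as a chaperone, was 3.97, 3.94 and 3.84 in the controls and 3.80, 3.80 and 3.70 in the knockdown, a change of -0.15 (SE 0.059, limma adjusted p = 0.14). Psmg2, which pairs with Psmg1, changed by -0.12 (limma adjusted p = 0.16). Psmg1, the brightest of these, was 6.10, 6.12 and 6.08 in the controls and 6.11, 6.12 and 6.05 in the knockdown. Its groups overlapped, with a change of -0.0058 (95% interval -0.11 to 0.10), and 0.11 for its second probe (limma adjusted p = 0.12). Psmd9 and Psmd10, the other chaperones of the ATPase ring, changed by 0.081 and -0.048, and their second probes by 0.12 each. Psmc3ip (0.17, limma adjusted p = 0.077), which is no proteasome subunit, did not pass. Psme3ip1 was 2.99, 3.02 and 2.995 in the controls and 3.19, 3.07 and 3.10 in the knockdown, without overlap, and its change of 0.12 did not pass (limma adjusted p = 0.16).

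Of the 45 genes, 34 had 1 tested probe and 11 had a second. Of these 11 second probes, 0 passed lower and 1 passed higher (Psme2), and 3 had the sign opposite to the brighter probe (Psmc2, Psmd10 and Psmg1), none of them past the test.

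**Figure D5:**
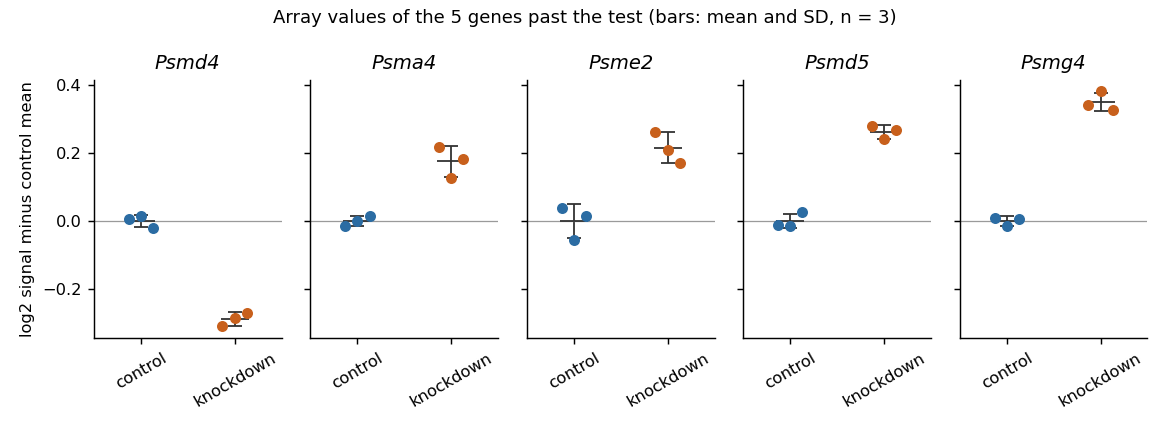
Log2 signal minus the control mean (vertical axis) on each array for the 5 genes that passed at an adjusted p below 0.05, with the mean and SD of 3 arrays. Psmd4 lies near -0.29 in the knockdown and the 4 others between 0.13 and 0.38, with no overlap between groups.

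The 6 arrays lay on 1 slide, with the 3 controls and knockdown replicate 1 in the first row and knockdown replicates 2 and 3 in the second. With the slide row as a block, 0 of 45 genes passed (limma), against 11.5% of all genes tested. In this fit, as within the first row alone, the changes rested on knockdown replicate 1. They were 0.34 for Psmg4, -0.31 for Psmd4, 0.28 for Psmd5, 0.26 for Psme2 and 0.22 for Psma4, each at least as far from 0 as before except Psmg4, and limma adjusted p values with the block were 0.053 to 0.12. Relative to its control mean, the median proteasome gene was at 0.021, -0.012 and -0.0083 on the control arrays and at 0.057, 0.019 and 0.024 on the knockdown arrays. Knockdown replicate 1, in the row of the controls, held the highest of these medians.

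Other genes of the pathway were read from lists of its components. Of 10 proteasome components with other names, 0 were lower and 2 (20%) were higher, against 15.7% of all genes tested in each direction. Fbxo7, a ubiquitin ligase subunit that binds the proteasome inhibitor Psmf1, rose by 0.21 (SE 0.042, limma adjusted p = 0.023). Uchl5, a proteasome-bound deubiquitinating enzyme, also rose by 0.21 (SE 0.046, limma adjusted p = 0.031). Adrm1, the ubiquitin receptor that recruits Uchl5, changed by 0.10 and did not pass (limma adjusted p = 0.21), nor did the core maturation factor Pomp at -0.12 (limma adjusted p = 0.10). The calls of Fbxo7 and Uchl5 held in 7 and 6 of the 18 alternatives and were lost with median scaling and with the slide row as a block, with no change of direction. Leaving out any 1 array ended the call of Uchl5, and any but control replicate 1 that of Fbxo7.

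Nfe2l1 codes for the factor that induces proteasome genes when the proteasome is impaired. Of 7 genes for this factor, its relative Nfe2l2 and the proteins that activate it, 0 were lower and 1 was higher. That was 14.3%, against 31.4% of all genes tested. Nfe2l2 rose by 0.33 (SE 0.052, limma adjusted p = 0.011), a call that held in 15 of 18 alternatives and was lost with median scaling and the slide row block, while Nfe2l1 changed by 0.13 (limma adjusted p = 0.18). Of 6 genes for ubiquitin and its activating enzymes, 0 passed in either direction, against the same 31.4%, with changes of -0.14 to 0.12.

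Shuttle factors carry ubiquitin-tagged proteins to the proteasome, and 6 of the 7 on this list passed, 3 in each direction. That was 85.7%, against 31.4% of all genes tested. Zfand5, an activator that binds the proteasome, was 3.61, 3.46 and 3.64 in the controls and 2.82, 2.70 and 2.71 in the knockdown. Its groups were widely separated, and it fell by 0.83 (SE 0.070, limma adjusted p = 0.0019), more than 1.5-fold. Its relative Zfand2a fell by 0.35 (SE 0.042, limma adjusted p = 0.0049). The ubiquilins, shuttles with a ubiquitin-like domain, were higher: Ubqln2 rose by 0.42 (SE 0.073), Ubqln4 by 0.33 (SE 0.044) and Ubqln1 by 0.28 (SE 0.050), with limma adjusted p values of 0.0067 to 0.017. Rad23b changed by 0.12 (limma adjusted p = 0.11). The direction of the 6 that passed was the same in all 18 alternatives. The call of Zfand5 held in 17 of them, while median scaling and the slide row block both ended the calls of the ubiquilins (changes of 0.16 to 0.47). The calls of Ubqln1 and Ubqln2 were also lost without control replicate 1 or 2 or knockdown replicate 1 or 3. The members of this list had a median size of change of 0.33, against 0.075 for the proteasome genes.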

How the data were processed

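Total RNA of 6 N2a samples was hybridised to one-colour Agilent arrays. The authors deposited the scanner intensity of each array (Agilent Feature Extraction 10.10.1.1, background-subtracted processed signal) and a matrix of log2 values, which differed from log2 of the processed signal minus the array's 75th percentile by at most 0.0076 over 43557 probes with 1 spot.

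The scanner tables were used. Spots of a probe were averaged, without control and outlier spots, and log2 intensity minus the 75th percentile was taken. Probes above the 20th percentile on all 3 arrays of a group were kept (42208 of 55681). RefSeq accessions gave symbols (25869 of 26392 coding accessions matched), and the brightest probe stood for a gene. The knockdown arrays were set against the controls by limma (version 3.58.1, under R 4.3.3), with lmFit and eBayes. Benjamini-Hochberg adjustment was over all 42208 probes kept, before a probe was picked for each gene. The procedure was first tested on simulated data. Array values were given for proteasome genes that passed (beyond those with a fold above 1.5, at most 12) and for the brightest of each subunit group; of other lists, genes that passed and the NF-Y subunits could be named. Further named genes, such as Psmb6, Psmc5, Psmd13, Psmg3, Adrm1 and Nfe2l1, were chosen after their values were seen, and the members and lists with earlier results of these data known.

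Same-numbered arrays of the groups deviated with correlations of 0.0023 to 0.066 and were not taken as pairs. Alternatives were other scalings, normexp (offset 50, on the median signal), the log2 matrix, other filters, the mean of probes, a variance trend, blocks and leaving out each array. Promoters came from RefSeq (GRCm38.p6). No probe coordinates were used. The values of some genes on the lists are not reported here.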

Additional observations from a re-analysis of the deposited data

How the results depend on the processing

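The number of lower proteasome genes, 1, became 0 with spike-in scaling, with the slide row as a block and within the first slide row alone (a setting added after seeing the data), and 3 with a variance trend. The number of higher genes, 4, became 13 with quantile normalization and with normexp, 9 with a variance trend, 2 without a filter on dim probes, 1 with spike-in scaling and 0 with median scaling, with the slide row as a block and within the first row. With the replicate number as a block (replicate block), which the data did not bear out as a pairing, 1 was lower (9.66%) and 1 higher (8.02%). Leaving out 1 array at a time gave 1 lower (10.4% to 12.6%) and 2 higher (9.42% to 11.9%), with Psme2 and Psma4 lost each time. The median change, 0.037, became 0.091 with quantile normalization, 0.087 with normexp and -0.080 with median scaling. In the 18 alternatives, 0 proteasome genes passed with a fold above 1.5, and the direction of Psmd4, Psmg4, Psmd5, Psme2 and Psma4 was kept. Psmd4 ranged from -0.41 to -0.20 and passed in 15, Psmg4 from 0.23 to 0.40 in 15, Psmd5 from 0.14 to 0.33 in 13, Psme2 from 0.098 to 0.28 in 6 and Psma4 from 0.059 to 0.26 in 5. Quantile normalization and normexp also raised Psmb5, Psmc3, Psmc4, Psmc5, Psmc3ip and Psme3ip1 past the threshold.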
